A study of Mus musculus with 6 samples.

Results

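The 7 genes followed here by name are enzymes that make and interconvert asparagine, glutamine, glutamate, aspartate and alanine: Asns, Glul, Glud1, Gpt, Gpt2, Got1 and Got2. All 7 were present among the 54532 genes of the expression table, and all 7 were among the 12944 genes tested. RNA from heart tissue was sequenced in 3 control mice (Ctrl, Mrps5 fl/fl) and 3 conditional knockout mice (cKO, Mrps5 fl/fl with MCM). Mrps5 encodes a mitochondrial ribosomal protein (small subunit). MCM is a tamoxifen-inducible Cre recombinase driven by the αMHC promoter in cardiomyocytes. Both groups received tamoxifen at 45 mg/kg/day for 5 days from 8 weeks of age, and RNA was taken 12 weeks later. The controls lacked MCM, so the loss of Mrps5 and the presence of an active Cre cannot be told apart. The methods describe the tissue as ventricle, a mixture of cell types in which fewer cells of a type and less RNA per cell cannot be told apart.

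Nitrogen moves between amino acids mainly through glutamate. Glutamine synthetase (Glul) adds ammonia to glutamate, asparagine synthetase (Asns) passes the amide of glutamine to aspartate, and glutamate dehydrogenase (Glud1) releases ammonia from glutamate as it forms 2-oxoglutarate. The aminotransferases swap amino groups between glutamate and either pyruvate (Gpt, Gpt2) or oxaloacetate (Got1, Got2), in a cytosolic and a mitochondrial form each. In cardiomyocytes Got1 and Got2 also belong to the malate-aspartate shuttle, which carries reducing equivalents of cytosolic NADH into mitochondria.

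Libraries held 15989322 to 24875499 reads assigned to genes, with overlapping totals in the groups. Levels are given in FPKM, read fragments divided by gene length and library size. The deleted gene ranged from 5.20 to 6.45 FPKM over the Ctrl hearts and from 1.12 to 1.31 FPKM over the cKO hearts, which left 20.4% of the Ctrl mean. The summed level of 10 cardiomyocyte markers ranged from 16630 to 20977 FPKM in Ctrl and from 10719 to 17862 FPKM in cKO hearts, and none of these markers was at 0. The summed level of 4 Y-linked genes was above 0 in 5 hearts and at 0 in cKO replicate 2. The methods name male mice as the only ones used, so values without this heart are given as well.

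The 7 enzymes did not move together. Asns, expressed at a low level in control hearts, was 39.6 times its control level in cKO hearts, whereas Gpt was at 52.2%, Glul at 68.7% and Glud1 at 83.1% of the control mean. Gpt2, Got1 and Got2 overlapped between the groups. In the comparison of all genes (limma on log2(FPKM + 1), adjusted p under 0.05), 33.3% of the genes tested were called, 16.3% as higher and 17.0% as lower in cKO. Of the 7 enzymes, 1 was called higher, 3 were called lower and 3 were not called. The hearts of the groups did not overlap for 4 of the 7, compared with 51.2% of all genes tested. Among these 4, Asns was above in every cKO heart, as 24.8% of all genes were, and 3 were below, as 26.4% of all genes were. The enzymes were chosen by their FPKM values in these same hearts, so the counts are a description and no p-value is given for any of the 7. Their median log2 fold change was −0.14, beside −0.02 over all genes.

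**Figure D1:**
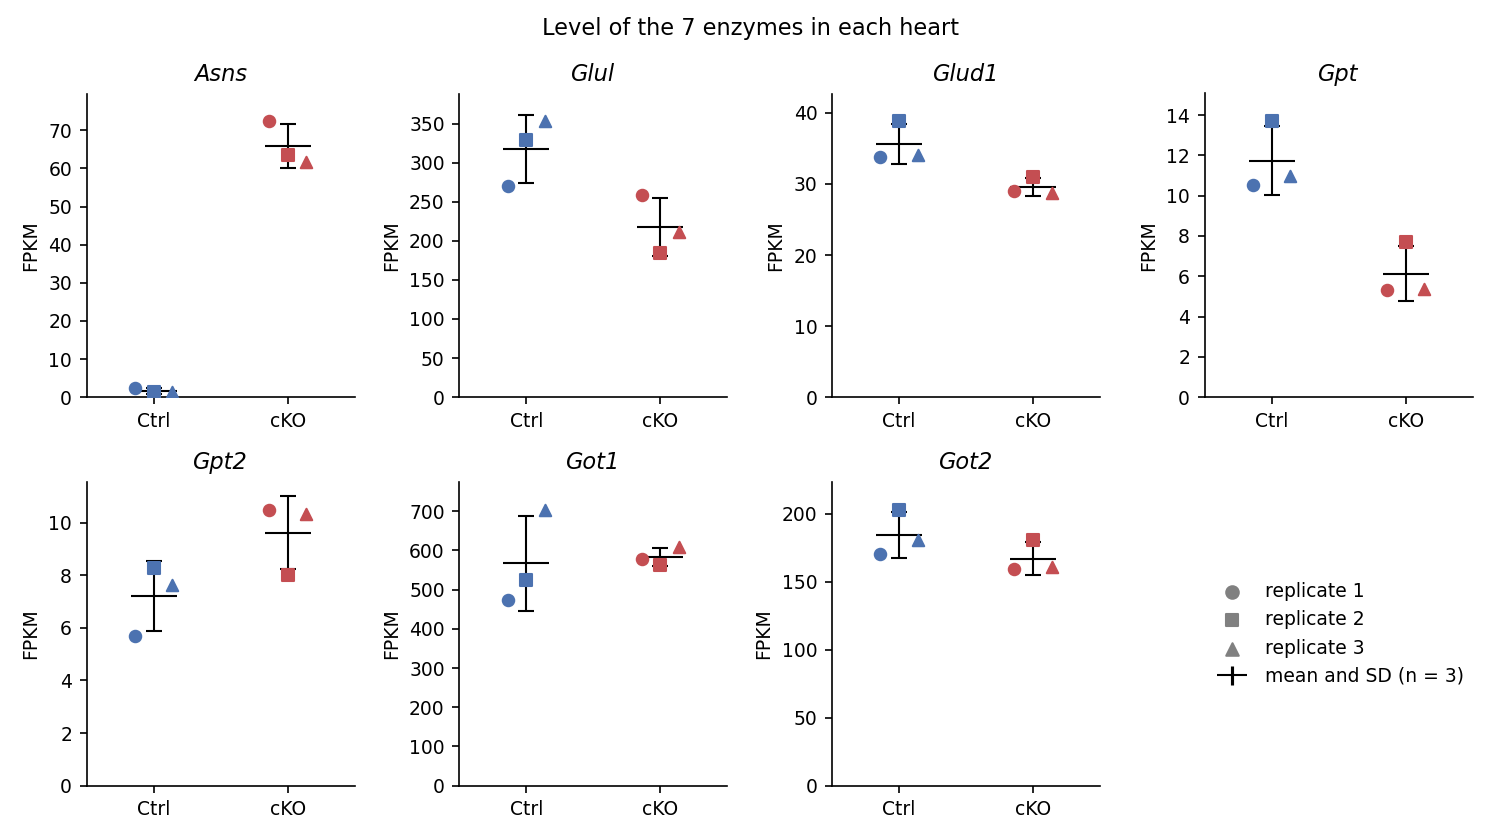
Level of each enzyme in FPKM (y axis, from 0) in each of the 3 Ctrl (blue) and 3 cKO (red) hearts. Marker shape gives the replicate number, the horizontal dash the mean and the bars the SD. Asns rises from 1.66 to 65.9 FPKM, Glul, Glud1 and Gpt lie lower in every cKO heart than in any Ctrl heart, and the other 3 genes overlap.

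Asparagine synthetase showed the largest difference of the 7. Asns (ENSMUSG00000029752, GRCm38 chr6:7675169-7693254, minus strand, 12 exons in the longest coding transcript) measured 2.49, 1.23 and 1.27 FPKM in Ctrl replicates 1, 2 and 3. For cKO replicates 1, 2 and 3 the values were 72.4, 63.6 and 61.7 FPKM. Every cKO heart was far above every Ctrl heart, and among the controls replicate 1 was clearly the highest. The means were 1.66 ± 0.718 FPKM in Ctrl and 65.9 ± 5.72 FPKM in cKO (SD, n = 3 each), and the log2 fold change was 4.68 (SE 0.180), or 4.70 without cKO replicate 2. That difference lay at percentile 99.99 of all genes tested. These values rested on 70 to 130 reads per Ctrl heart and 3353 to 4245 reads per cKO heart, so the control level is the less precise of the pair. Ordered by mean level among all genes tested, Asns moved from rank 9665 in Ctrl to rank 666 in cKO hearts.

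The start of Asns was examined for the letters TGATGNAAN, the form of the response element bound by C/EBP and ATF factors (searched on both strands, N being any base). RefSeq windows of 300 bases, which end 50 bases after the gene start, were at hand for 6 of the 7 enzymes, Gpt being the one without. The letters occurred in the windows of Asns and Got1 and not in those of Glul, Glud1, Gpt2 or Got2. They occurred in 2.24% of the 11867 windows of tested genes and in 3.95% of all 32851 windows. In Asns the match began 23 bases before the gene start and read along the gene, at a place that the expression table counts as part of Asns because its gene end lies further upstream. In Got1, whose level overlapped between the groups, it began 103 bases before the start and read on the opposite strand. The E-box CACGTG, present in 10.1% of the windows of tested genes, was found in none of the 6, so no overlap with the first motif arose. The 30 bases around each match are written out on the strand of the gene, 5′ to 3′, with the match in capitals, so that the enzyme that rose and the one that did not can be compared letter by letter. The same is shown for 3 of the 4 tested genes of the surrounding pathway lists that held a match. Aars, which held 2 matches, is not written out.
Asns (chr6:7693213-7693242, minus strand): cccagccacaTGATGAAACttcccgcacgc
Got1 (chr19:43524689-43524718, minus strand): cattgcattgGTTGCATCAtacaagcctcc
Atf3 (chr1:191183425-191183454, minus strand): ccttctcgcaCTTGCATCAccaagtccgcg
Slc1a4 (chr11:20332699-20332728, minus strand): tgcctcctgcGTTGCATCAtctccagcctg
Trib3 (chr2:152344028-152344057, minus strand): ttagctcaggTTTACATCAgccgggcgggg
Of the tested pathway genes with a window, a match was held by 4 of 23 called higher, 0 of 11 called lower and 0 of 21 not called. The 4 were Aars, Atf3, Slc1a4 and Trib3. However, the lists they come from were drawn up with such results known, and Slc1a4 passed the minimum level only through the cKO hearts. A match is a run of letters and was not examined as a binding site.

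Glutamine synthetase was lower in cKO hearts. Glul (ENSMUSG00000026473, chr1:153899944-153909723, plus strand, 7 exons) measured 269.6, 329 and 353 FPKM in Ctrl replicates 1, 2 and 3, against 258, 185 and 211 FPKM for cKO replicates 1, 2 and 3. The groups did not overlap, but Ctrl replicate 1 and cKO replicate 1 lay close together. The mean fell from 317 ± 43.0 to 218 ± 37.2 FPKM (SD, n = 3 each), a log2 fold change of −0.54 (SE 0.153), on 14337 to 28390 reads per heart. Teddm2, which overlaps Glul on the opposite strand, was listed at 0.157 to 0.295 FPKM. The call was lost without cKO replicate 2 (log2 fold change −0.43), as it was without Ctrl replicate 2, Ctrl replicate 3 or cKO replicate 3. Summed endothelial markers moved with it, from 132 to 155 FPKM in Ctrl down to 88.7 to 105 FPKM in cKO hearts with 4 of 7 markers lower, and 6 of 10 cardiomyocyte markers were lower as well. The part of either in the level of Glul was not tested.

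Because Asns consumes glutamine and Glul makes it, the pair was also set side by side within each heart. Asns stood at 0.553 ± 0.322% of the Glul level in Ctrl and at 30.6 ± 3.40% in cKO hearts (SD, n = 3 each). Glul nevertheless remained the higher of the pair in all 6 hearts.

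Glutamate dehydrogenase differed least among the genes that were called. Glud1 (ENSMUSG00000021794, chr14:34310727-34345265, plus strand, 13 exons) measured 33.8, 38.8 and 34.0 FPKM in the 3 Ctrl hearts, against 29.1, 31.0 and 28.7 FPKM in the 3 cKO hearts. All 3 cKO hearts lay below all 3 Ctrl hearts, with a gap about as large as the SD of the controls. The means were 35.6 ± 2.83 and 29.6 ± 1.24 FPKM (SD, n = 3 each), and the log2 fold change was −0.26 (SE 0.0815). The call was lost in 12 of 14 alternative fits, among them every fit that left out 1 heart (−0.29 without cKO replicate 2). The processed pseudogene Glud-ps, which could share reads with it, was listed at 0.717 to 1.28 FPKM.

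The alanine aminotransferases changed order. Gpt encodes the cytosolic and Gpt2 the mitochondrial enzyme that converts pyruvate and glutamate to alanine and 2-oxoglutarate. Gpt (ENSMUSG00000022546, chr15:76695716-76699686, plus strand, 11 exons) measured 10.5, 13.7 and 11.0 FPKM in the 3 Ctrl hearts, against 5.30, 7.72 and 5.37 FPKM in the 3 cKO hearts, without overlap. Its mean fell from 11.7 ± 1.72 to 6.13 ± 1.38 FPKM (SD, n = 3 each), a log2 fold change of −0.85 (SE 0.156), on 264 to 838 reads per heart. In each group replicate 2 was the highest of the 3 hearts. Without cKO replicate 2 the log2 fold change of Gpt was −0.999.

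Gpt2 (ENSMUSG00000031700, chr8:85492576-85527560, plus strand, 12 exons) measured 5.70, 8.27 and 7.64 FPKM in the 3 Ctrl hearts, against 10.5, 8.02 and 10.3 FPKM in the 3 cKO hearts. In total 2 of the 3 cKO hearts were above every control, and cKO replicate 2 lay below Ctrl replicate 2. The means were 7.20 ± 1.34 and 9.61 ± 1.38 FPKM (SD, n = 3 each), with a log2 fold change of 0.38 (SE 0.151) that was not called. Without cKO replicate 2 the log2 fold change was 0.49 and the gene was called higher.

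Taken as a pair, Gpt2 made up 35.2%, 37.7% and 41.0% of the summed level of Gpt and Gpt2 in Ctrl replicates 1, 2 and 3. In cKO replicates 1, 2 and 3 its share was 66.4%, 51.0% and 65.8%. The cytosolic form was thus the higher one in all 3 Ctrl hearts and the mitochondrial form the higher one in all 3 cKO hearts, although in cKO replicate 2 the forms were nearly level. The mean share was 37.9 ± 2.93% in Ctrl and 61.1 ± 8.75% in cKO (SD, n = 3 each). The sum itself was 18.9 ± 2.90 FPKM in Ctrl and 15.7 ± 0.0532 FPKM in cKO, and the lowest control heart, at 16.2 FPKM, was above all 3 cKO hearts. Without cKO replicate 2 the difference in share was 28.2 percentage points instead of 23.1.

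**Figure D2:**
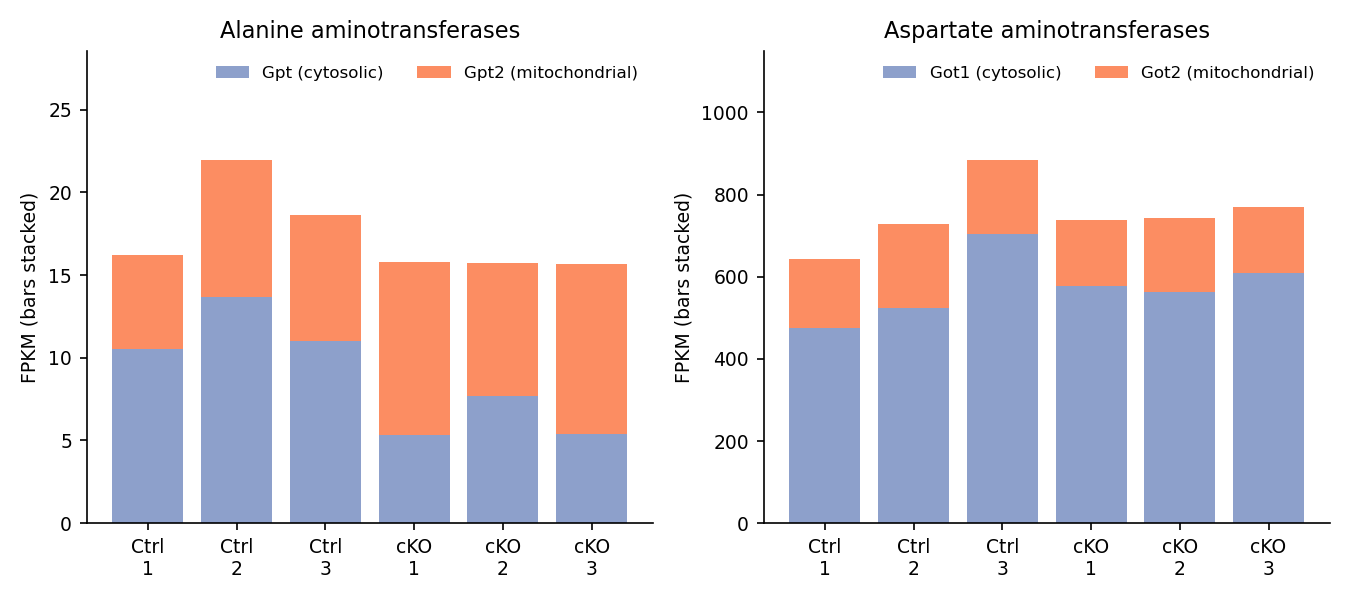
Stacked bars of the cytosolic (blue) and mitochondrial (orange) aminotransferase genes in FPKM (y axis, from 0) in each heart. Gpt2 makes up 35.2% to 41.0% of its pair in Ctrl and 51.0% to 66.4% in cKO hearts, whereas Got2 makes up 20.4% to 27.9% and 20.9% to 24.3%.

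The aspartate aminotransferases did not show such an exchange. Got1, the cytosolic form (ENSMUSG00000025190, chr19:43499752-43524605, minus strand, 9 exons), was the most abundant of the 7 enzymes in both groups. It measured 474, 524 and 704 FPKM in the 3 Ctrl hearts, against 578, 562 and 609 FPKM in the 3 cKO hearts. All 3 cKO hearts fell inside the range of the controls. The means were 567 ± 121 and 583 ± 23.7 FPKM (SD, n = 3 each), and the log2 fold change of 0.06 (SE 0.149) was smaller than its error and turned to −0.06 without Ctrl replicate 1. The Ctrl hearts varied by 21.3% (coefficient of variation) and the cKO hearts by 4.06%, beside medians of 7.02% and 9.14% over the 5867 genes averaging 5 FPKM or more. Summed atrial cardiomyocyte markers, which differ widely between the hearts, were 2054, 289.6 and 128 FPKM in Ctrl replicates 1, 2 and 3, in the reverse order of Got1. In cKO replicates 1, 2 and 3 these markers summed to 575, 1348 and 1675 FPKM. The order of the cKO sums was not the reverse of Got1, as these sums and Got1 were both highest in cKO replicate 3. Of the sums, Nppa alone gave 1062, 144 and 103 FPKM in Ctrl and 469, 1127 and 938 FPKM in cKO replicates 1, 2 and 3. The paper uses Nppa as a marker of hypertrophy, so the cKO sums need not stand for atrial cells. The part of these markers in the spread of Got1 was not tested.

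Got2, the mitochondrial form (ENSMUSG00000031672, chr8:95864134-95888547, minus strand, 10 exons), measured 170.2, 203 and 181 FPKM in the 3 Ctrl hearts, against 159.6, 181 and 160.5 FPKM in the 3 cKO hearts. In both groups replicate 2 was the highest, and cKO replicate 2 lay within the range of the controls. The means were 185 ± 16.8 and 167 ± 12.0 FPKM (SD, n = 3 each), with a log2 fold change of −0.14 (SE 0.0964) that was not called. The log2 fold changes without cKO replicate 2 were 0.08 for Got1 and −0.20 for Got2. Together the pair held 752 ± 122 FPKM in Ctrl and 750.0 ± 17.1 FPKM in cKO hearts, with Got2 at 24.9 ± 3.97% and 22.3 ± 1.82% of the sum. A processed pseudogene, Got2-ps1, was listed at 2.19 to 3.48 FPKM and could share reads with Got2.

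**Figure D3:**
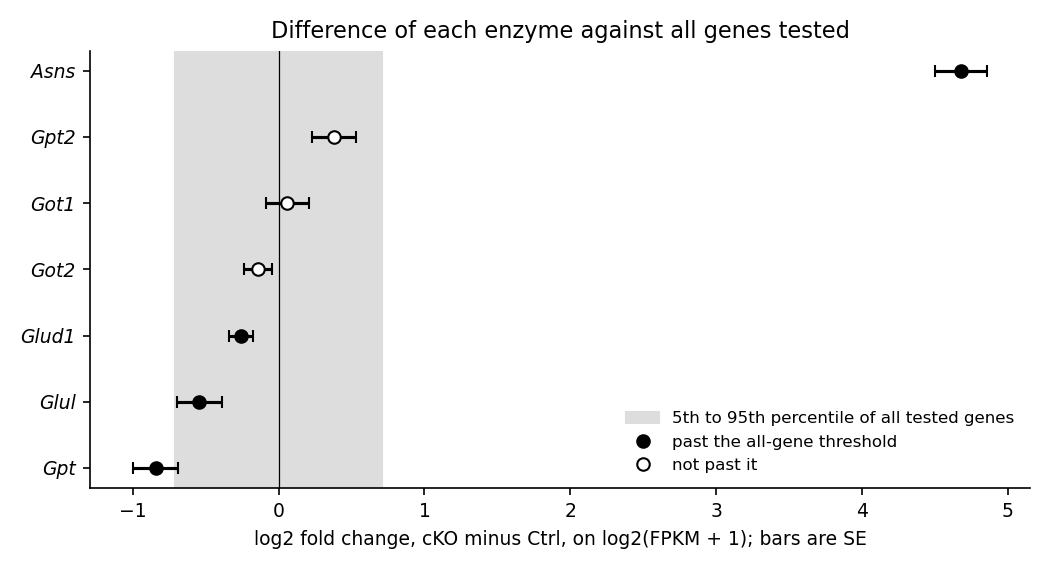
Log2 fold change of each enzyme, cKO minus Ctrl on log2(FPKM + 1) (x axis, bars are SE, filled points were called in the comparison of all genes), against the range between the 5th and 95th percentile of all genes tested (grey, −0.71 to 0.71). Asns lies far to the right at 4.68, Gpt just outside the range at −0.85 and the other 5 genes inside it.

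The order of the levels, which FPKM allows since it is per length of gene, shifted for Asns and the alanine aminotransferases. In Ctrl hearts it ran from Got1 through Glul, Got2, Glud1, Gpt and Gpt2 to Asns. In cKO hearts Asns stood between Got2 and Glud1, and Gpt2 stood above Gpt. No neighbours in either order overlapped over the 3 hearts, but in cKO hearts the lowest value of Glul (185 FPKM) was close to the highest of Got2 (181 FPKM), and the lowest of Gpt2 (8.02 FPKM) to the highest of Gpt (7.72 FPKM). The sum over all 7 genes was 1126 ± 163 FPKM in Ctrl and 1079 ± 37.6 FPKM in cKO hearts (SD, n = 3 each). Within that sum Asns took 0.155% in Ctrl and 6.11% in cKO, Glul took 28.2% and 20.1%, and Got1 took 50.1% and 54.0%.

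The genes around these enzymes were taken from 8 lists of 87 genes in all, which were drawn up with earlier results of these data known. Of the 68 that were tested, 28 were called higher, 13 were called lower and 27 were not called, with a median log2 fold change of 0.14. Over all 12944 genes tested, 16.3% were called higher and 17.0% lower, with a median of −0.02. The counts of each list below are to be read beside these shares. The remaining 19 genes were too low to be tested.

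Among the genes for breaking asparagine and related amides down again, Asrgl1, an asparaginase, measured 15.6, 16.9 and 16.7 FPKM in the 3 Ctrl hearts, against 11.5, 10.1 and 12.7 FPKM in the 3 cKO hearts, without overlap (log2 fold change −0.49, limma adjusted p 0.00859). Nit2, an omega-amidase, stood at 9.04 ± 0.885 and 7.62 ± 0.904 FPKM and was not called (limma adjusted p 0.152).

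Of 12 genes whose products take the amide of glutamine, 3 were higher, 1 was lower and 8 were not called. Ctps, which makes CTP from UTP, measured 15.4, 12.5 and 10.2 FPKM in the 3 Ctrl hearts, against 42.2, 36.7 and 32.3 FPKM in the 3 cKO hearts (log2 fold change 1.48, limma adjusted p 0.00154). The groups were widely separated. Cad, which starts pyrimidine synthesis, rose by 0.52 on the log2 scale (limma adjusted p 0.0131). Gfpt1, of hexosamine synthesis, rose by 0.25 (limma adjusted p 0.0496), a call lost in 9 of 14 alternatives. Ppat, the first committed enzyme of purine synthesis, fell by 0.38 (limma adjusted p 0.0165), a call lost with voom (−0.30) and without Ctrl replicate 1 or cKO replicate 3.

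The list of aspartate and glutamate users, which also holds genes of linked steps, had 17 genes. Of these 12 were tested, of which 5 were higher and 2 lower. Both lower genes, Aldh4a1 and Oplah, form glutamate. Aldh18a1, the enzyme that commits glutamate to proline synthesis, measured 2.46, 2.28 and 2.43 FPKM in the 3 Ctrl hearts, against 26.8, 25.4 and 23.9 FPKM in the 3 cKO hearts (log2 fold change 2.96, limma adjusted p 1.3e-05). Aldh4a1, which forms glutamate in the breakdown of proline, fell from 16.3 ± 1.28 to 7.22 ± 0.607 FPKM (log2 fold change −1.07, limma adjusted p 0.000832). Oplah, the 5-oxoprolinase that returns glutamate from the glutathione cycle, also fell (log2 fold change −0.58, limma adjusted p 0.00684). Asl, the argininosuccinate lyase, rose from 1.12 ± 0.221 to 2.08 ± 0.125 FPKM (log2 fold change 0.54, limma adjusted p 0.00738). Ddo, which oxidises D-aspartate, rose by 0.39 on the log2 scale (limma adjusted p 0.0258), a call lost in 5 of 14 alternatives. Without any 1 of the Ctrl hearts, or without cKO replicate 3, 3 instead of 5 genes of the list were higher.

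The other aminotransferases were also split. Of 14 genes 8 were tested, and 2 were higher while 5 were lower. Psat1, which takes the amino group of glutamate for serine synthesis, measured 1.97, 1.42 and 0.816 FPKM in the 3 Ctrl hearts, against 30.8, 21.7 and 25.6 FPKM in the 3 cKO hearts (log2 fold change 3.51, limma adjusted p 0.000202). Bcat1, the cytosolic branched-chain aminotransferase, rose from 0.122 ± 0.0296 to 2.18 ± 0.855 FPKM (log2 fold change 1.47, limma adjusted p 0.00212). Its control level was under the minimum of 0.5 FPKM, so it could be tested only through its level in cKO hearts. The falls were smaller in size. Abat, the GABA aminotransferase, measured 3.72, 3.70 and 2.40 FPKM in the 3 Ctrl hearts, against 0.732, 1.05 and 1.42 FPKM in the 3 cKO hearts (log2 fold change −1.04, limma adjusted p 0.00557). Oat, which links ornithine to glutamate, fell from 86.1 ± 2.67 to 57.2 ± 4.47 FPKM (log2 fold change −0.58, limma adjusted p 0.00317). Kyat3, a kynurenine aminotransferase, fell by 0.51 on the log2 scale (limma adjusted p 0.0140), a call lost without Ctrl replicate 2 or 3. With scaling that left out mtDNA-encoded genes, 3 instead of 5 genes of this list were lower, as without Ctrl replicate 1, cKO replicate 1 or cKO replicate 3. Without Ctrl replicate 2 or Ctrl replicate 3 only 2 were lower.

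Of the 7 genes listed beside Got1 and Got2 as partners of the malate-aspartate shuttle and as mitochondrial glutamate carriers, 6 were tested, 4 were lower and none was higher. Slc25a13, an aspartate-glutamate carrier of the inner membrane, measured 35.8, 45.1 and 41.1 FPKM in the 3 Ctrl hearts, against 24.8, 24.6 and 25.1 FPKM in the 3 cKO hearts (log2 fold change −0.68, limma adjusted p 0.00304). The cKO hearts were nearly identical. Its paralog Slc25a12 fell from 35.8 ± 3.11 to 26.5 ± 2.30 FPKM (log2 fold change −0.42, limma adjusted p 0.0176), a call lost without Ctrl replicate 2 or 3. The oxoglutarate-malate carrier Slc25a11 fell from 230.4 ± 28.7 to 156 ± 12.5 FPKM (log2 fold change −0.56, limma adjusted p 0.0107). Cytosolic malate dehydrogenase, Mdh1, fell from 815 ± 51.7 to 592 ± 48.0 FPKM (log2 fold change −0.46, limma adjusted p 0.0119), whereas mitochondrial Mdh2 was not called at 331 ± 19.7 and 280.2 ± 16.7 FPKM (limma adjusted p 0.0680), although its hearts did not overlap. The glutamate carrier Slc25a22 was not called at 7.77 ± 0.713 and 8.23 ± 1.45 FPKM (limma adjusted p 0.725). Slc25a18 was too low to be tested. The cardiomyocyte markers fell in the same hearts (6 of 10), and their part in these values was not tested.

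Of 10 tested genes for plasma membrane carriers of glutamine, asparagine and glutamate, 7 were higher and none was lower, with a median log2 fold change of 0.86. Slc7a5, the light chain of a large neutral amino acid exchanger, measured 3.18, 2.85 and 1.95 FPKM in the 3 Ctrl hearts, against 35.8, 38.0 and 35.8 FPKM in the 3 cKO hearts (log2 fold change 3.37, limma adjusted p 8.7e-05). Slc38a1, a sodium-coupled glutamine carrier, rose from 0.850 ± 0.179 to 4.13 ± 0.411 FPKM (log2 fold change 1.47, limma adjusted p 0.000447). Slc1a4, a carrier of small neutral amino acids, measured 0.294, 0.661 and 0.432 FPKM in the 3 Ctrl hearts, against 1.43, 5.19 and 3.66 FPKM in the 3 cKO hearts (log2 fold change 1.503, limma adjusted p 0.0131). Its level in cKO replicate 1 was well below that in the other cKO hearts, and its control level was under the minimum of 0.5 FPKM.

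**Figure D4:**
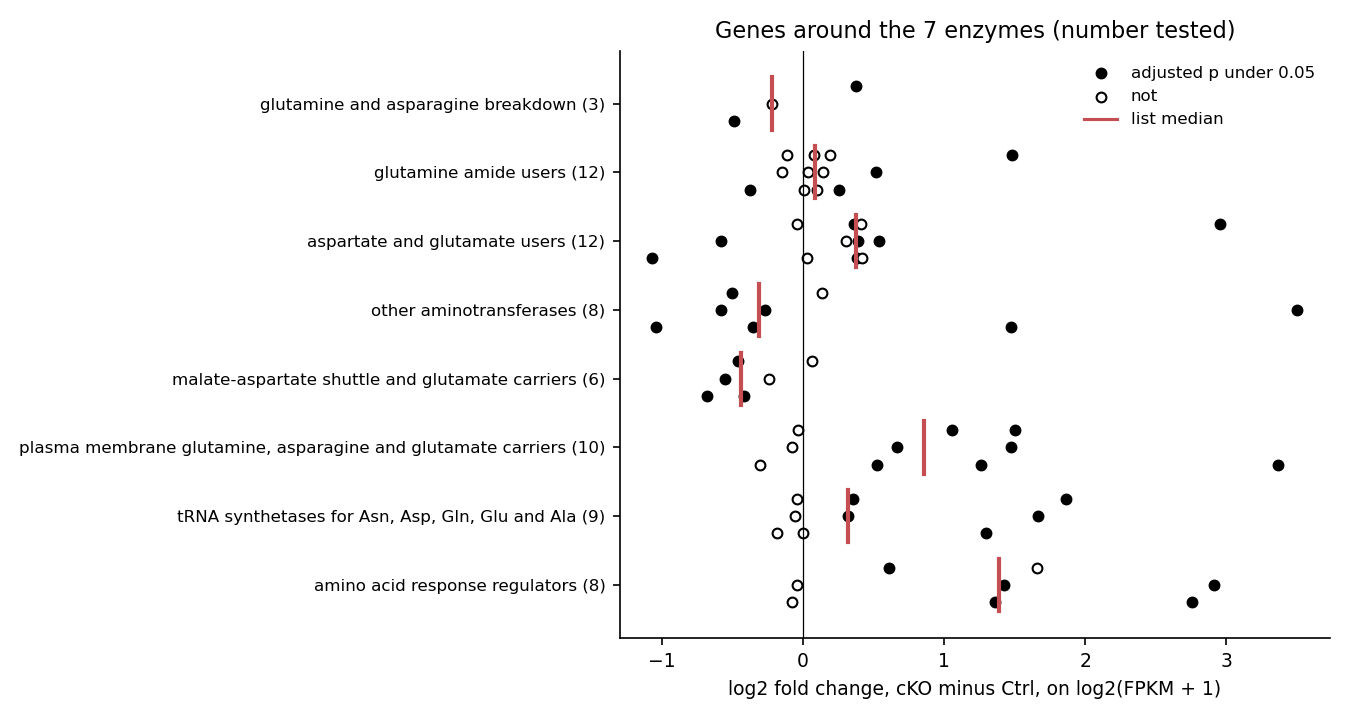
Log2 fold change, cKO minus Ctrl on log2(FPKM + 1) (x axis), of each tested gene of the 8 surrounding lists (rows, number tested in brackets). Filled points had an adjusted p under 0.05 and the red line is the list median, which runs from −0.44 for the malate-aspartate shuttle to 1.39 for the amino acid response regulators.

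Among the aminoacyl-tRNA synthetases for asparagine, aspartate, glutamine, glutamate and alanine, 5 of 9 tested genes were higher and none was lower. Nars, the cytosolic enzyme for asparagine, measured 37.2, 35.8 and 37.3 FPKM in the 3 Ctrl hearts, against 148, 136 and 127 FPKM in the 3 cKO hearts (log2 fold change 1.87, limma adjusted p 9.2e-05). Eprs, for glutamate and proline, rose from 7.16 ± 0.0799 to 25.0 ± 3.00 FPKM (log2 fold change 1.67, limma adjusted p 0.000202). Aars, for alanine, rose from 8.44 ± 0.171 to 22.2 ± 2.00 FPKM (log2 fold change 1.29, limma adjusted p 0.000309). The spread of these 3 genes within each group was small beside their difference. Without Ctrl replicate 3 or cKO replicate 1, 3 instead of 5 genes of the list were higher.

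Of 8 genes listed as regulators of the amino acid response, 5 were called higher and none lower. Cells turn that programme on when uncharged tRNA accumulates, which was not measured here. The 3 not called were Cebpb, Ddit3 and Eif2ak4 (log2 fold change of Eif2ak4 −0.08, limma adjusted p 0.673). What raised the called genes was not tested. Atf5 measured 32.3, 26.5 and 32.8 FPKM in the 3 Ctrl hearts, against 231, 175 and 232 FPKM in the 3 cKO hearts (log2 fold change 2.76, limma adjusted p 0.000165). Atf4, a bZIP factor known to activate Asns, measured 37.9, 41.8 and 39.3 FPKM in the 3 Ctrl hearts, against 66.2, 153 and 125 FPKM in the 3 cKO hearts (log2 fold change 1.43, limma adjusted p 0.00998). Here cKO replicate 1 rose least. Trib3, a pseudokinase induced by Atf4, measured 1.60, 1.15 and 1.63 FPKM in the 3 Ctrl hearts, against 4.75, 36.2 and 28.8 FPKM in the 3 cKO hearts (log2 fold change 2.92, limma adjusted p 0.0153). Again cKO replicate 1 was nearest to the controls, and without it the log2 fold change of Trib3 was 3.76. The call of Trib3 was lost without Ctrl replicate 2 (log2 fold change 2.82), and 3 instead of 5 genes of the list were then higher.

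The genes nearest to each enzyme over the 6 hearts were those with the smallest root mean square distance between profiles of log2(FPKM + 1), each taken relative to its Ctrl mean, among 11420 protein-coding genes. For Asns they were Mthfd2 (distance 0.193), Esr1 (0.393) and Phgdh (0.430). Esr1 measured 1.01, 0.644 and 0.530 FPKM in the 3 Ctrl hearts, against 29.3, 57.5 and 29.4 FPKM in the 3 cKO hearts. Only the cKO hearts carry MCM, and whether reads of that transgene were counted as Esr1 was not tested. For Gpt they were Mlxipl (0.0814), Hhatl (0.103) and Sema4d (0.107). Mlxipl encodes a glucose-responsive transcription factor and measured 4.37, 5.23 and 4.66 FPKM in the 3 Ctrl hearts, against 1.57, 2.95 and 1.96 FPKM in the 3 cKO hearts, so that replicate 2 was the highest of each group, as for Gpt. For Gpt2 the nearest were Tubb4b (0.0618), H2afz (0.0934) and Cdyl2 (0.0979), and for Glul they were Usp54 (0.0778), Hbp1 (0.0789) and Galm (0.0957). For Got2 they were Myom1 (0.0168), Taco1 (0.0373) and Cycs (0.0378). Myom1 encodes a protein of the sarcomeric M-band, and Cycs encodes cytochrome c. For Glud1 they were Marc2 (0.0253), Apoo (0.0259) and Hdhd5 (0.0272), and for Got1 they were Sf3b3 (0.0646), Jdp2 (0.0693) and Tbk1 (0.0695). Genes that barely differ between the groups lie near many others, so distances are not comparable between the enzymes.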

How the data were processed

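Poly-A RNA of 6 hearts was sequenced as paired-end reads. Per the labels and methods, the authors aligned reads with HISAT2 2.0.5, counted them with featureCounts 1.5.0-p3 and deposited FPKM values (read count divided by gene length and library size, 1 column per heart). Strand use and treatment of multiply aligned reads are not given in the sources used here. The gene length deposited by the authors was used as given. The processing notes name the build mm9, but of 54409 identifiers shared with GENCODE M21 (GRCm38) all had the same chromosome and 53499 the same start and end, so coordinates are GRCm38. The labels give 12 weeks after tamoxifen, whereas the methods speak of mice of that age.

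Groups and replicate numbers came from the sample titles, and columns were matched to samples by name. FPKM multiplied by gene length gave whole reads for 100% of values (within 0.01 read), from which depth was taken. The deposited scale was not that of the totals: the implied library size was 0.913 to 0.980 times the total in Ctrl and 1.06 times in each cKO heart. Replicate pairs differed by more than counting noise, with a mean chi-square of 13.2 to 43.1 per gene. The titles number the hearts as replicates without naming the animals, so p-values measure the spread between these samples.

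Genes averaging 0.5 FPKM or more over the hearts were fitted as log2(FPKM + 1), which understates changes of low genes, with limma 3.58.1 in R 4.3.3 (lmFit, eBayes with trend, no covariates, two-sided, Benjamini-Hochberg over all genes tested, threshold 0.05). The fit was tested on simulated data. Among the alternatives below, voom took the read totals as library sizes, not the deposited scale. Alternatives were a pseudocount of 0.1, no filter, a minimum mean of 1 FPKM, 2 other scalings, no trend, voom on recovered reads, a replicate block and each heart left out.

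The enzymes and gene lists were chosen with earlier results of these data known. Named from each list were up to 3 called genes with the largest rise and 3 with the largest fall, and all tested genes of the breakdown and shuttle lists. Counts include some items that are not reported here. Atf3, Cebpb, Ddit3 and Eif2ak4 were named after their values were seen. Marc2 is listed under a date in the table and was named by its identifier. Markers were counted over whole lists of 4 to 10 genes. Beside those given with the results, summed levels were as follows in Ctrl and cKO: fibroblast markers (154 to 178 and 143 to 156 FPKM, 2 of 7 higher and 1 lower), macrophage markers (249.7 to 333 and 192 to 287 FPKM, 1 of 6 tested lower), erythroid markers (869 to 2031 and 577 to 1571 FPKM, 0 of 4 called) and pericyte and smooth muscle markers (166 to 184 and 104 to 133 FPKM, 2 of 5 lower, 1 higher). None of the markers was at 0 in all hearts. Promoter windows are from RefSeq (GRCm38.p6), with a window for 71 of the 87 pathway genes. Protein sequences were not used here.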

Additional observations from a re-analysis of the deposited data

How the results depend on the processing

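Asns (4.57 to 5.56 over 14 alternatives) and Gpt kept direction and call in all 14. Glul kept its direction but was not called without a filter (−0.54), with scaling without mtDNA-encoded genes (−0.46), with voom (−0.40) or with the replicate block (−0.54), and ranged from −0.67 to −0.43 with 1 heart left out. Glud1 was not called without a filter (−0.26), with median-of-ratios scaling (−0.23), with scaling without mtDNA-encoded genes (−0.17), without trend (−0.26), with voom (−0.11), with the replicate block (−0.26) or with any heart left out (−0.29 to −0.19). Gpt2 was called with voom (0.56) and without cKO replicate 2, and ranged from 0.24 to 0.49 with 1 heart left out. Got1 ranged from −0.0602 to 0.225 with 1 heart left out. Got2 turned to 0.00796 with voom. That fit took the read totals as library sizes instead of the deposited scale, and the median of all genes moved from −0.02 to 0.13. Relative to that median, Got2 stayed lower. The part of the library sizes in the voom values was not tested, nor was the cause of the other changes.

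Over all genes, voom with those library sizes called 3387 higher and 1451 lower. Leaving out 1 heart gave 1396 to 1977 higher and 1423 to 2011 lower. The share of calls that were higher was 48.9%, and 62.0% with scaling without mtDNA-encoded genes and 70.0% with voom. Same-numbered hearts did not deviate together for replicates 1 and 3 (correlations −0.06 and −0.01), and did so weakly for replicate 2 (0.17). The replicate block gave 1874 higher and 1982 lower. Among the 68 pathway genes, 832 of 951 comparisons kept direction and call, and 36 comparisons in 12 genes changed sign, among them Slc25a22 (−0.0439 to 0.184 with 1 heart left out). Phykpl had no value at a minimum mean of 1 FPKM. Over the alternatives, 22 to 33 of them were higher and 9 to 13 lower. The carriers had 7 higher throughout and the shuttle 3 or 4 lower, whereas the regulators had 3 to 6 higher, the aspartate and glutamate users 3 to 7, the synthetases 3 to 5, and the other aminotransferases 2 to 5 lower. With 3 hearts a group, a missed threshold does not show that a level was the same, and Ctrl values of Asns rest on 70 to 130 reads.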

Other observations

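The cKO hearts ranked differently from gene to gene. Atf4 (66.2, 153 and 125 FPKM in cKO replicates 1, 2 and 3) and Trib3 (4.75, 36.2 and 28.8 FPKM) were lowest in cKO replicate 1. Atf3 stood at 3.65, 10.1 and 8.42 FPKM in the same hearts, beside 2.14, 1.92 and 2.13 FPKM in the controls (log2 fold change 1.36, limma adjusted p 0.0146). Ddit3, another bZIP factor of the stress response, stood at 10.5, 71.0 and 22.3 FPKM in cKO, beside 7.75, 8.06 and 6.78 FPKM in the controls. It was not called over all 6 hearts (log2 fold change 1.66, limma adjusted p 0.0699). It was called with voom (1.96, limma adjusted p 0.0491), without cKO replicate 1 (2.27, limma adjusted p 0.0184) and without cKO replicate 2 (0.94, limma adjusted p 0.0489). Another regulator, Atf5, was lowest in cKO replicate 2 (231, 175 and 232 FPKM), and the synthetase gene Aars was lowest in cKO replicate 1 (20.7, 24.5 and 21.5 FPKM). Asns (72.4 FPKM), Psat1 (30.8 FPKM), Aldh18a1 (26.8 FPKM) and Nars (148 FPKM) had their highest value of all hearts in cKO replicate 1. These genes were picked after their values were seen, and the ranks, over 3 hearts, were not tested.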
